A study of Mus musculus with 9 samples.

Results

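The Krüppel-like factors (KLFs) are transcription factors that bind GC-rich and CACCC-containing DNA through zinc fingers near the end of the protein. The 10 genes described here are Klf2, Klf3, Klf4, Klf5, Klf6, Klf9, Klf10, Klf11, Klf13 and Klf15, found by their symbols among the 55401 genes of a table of RNA-seq counts. Each symbol matched 1 gene, and all 10 were among the 16762 genes with enough counts to be tested. The cells were primary neonatal mouse ventricular myocytes (NMVMs) of genotype WT, taken from C57BL/6J pups 1 day after birth and grown in DMEM with 10% FBS. The 9 libraries fall into 3 groups of 3. The control group stayed in complete medium at normal oxygen. The hypoxia group was washed into DMEM lacking both glucose and serum and kept for 6 h in a sealed AnaeroPack chamber. The hypoxia + rSRGN group had the same medium, chamber and time, with recombinant serglycin (rSRGN, a proteoglycan core protein) added, at a dose that the labels do not give. Against control, low oxygen, lack of glucose, lack of serum and the wash therefore cannot be told apart, whereas the comparison between the hypoxic groups differs, as far as the labels say, in rSRGN. Nothing in the labels says whether the libraries of a group came from separate cultures or litters, so the p-values measure the spread between these libraries, which may be technical.

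KLF genes are usually sorted by the cofactor that their protein recruits. Klf2, Klf4, Klf5 and Klf6 encode proteins best known as activators that work with histone acetyltransferases, and Klf4 and Klf5 can also repress. Klf3 encodes a repressor that binds CtBP, and Klf9, Klf10, Klf11 and Klf13 encode proteins that bind the Sin3 corepressor, Klf10 and Klf11 being the TGF-beta-inducible pair. Klf15 is known in heart muscle as a regulator of lipid, glucose and branched-chain amino acid use that is induced by glucocorticoids. In endothelial cells Klf2 and Klf4 respond to blood flow, in vascular wall cells Klf4, Klf5 and Klf6 respond to injury, and several KLF genes are immediate early or serum-responsive genes.

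The libraries held between 16583985 and 22781557 counted fragments, and the 3 control libraries were the deepest. Levels are given as CPM (counts scaled to a common library size) after TMM scaling, and levels of different genes are compared only as CPM per kb of annotated exon. A gene was called when the edgeR quasi-likelihood test gave a Benjamini-Hochberg adjusted p below 0.05 over all tested genes and the fold change was at least 1.5. Errors of levels are SD with n = 3, errors of log2 fold changes are SE, and 95% intervals of fold changes are not adjusted for the number of genes. Replicate libraries differed beyond counting noise in all 9 pairs within groups (chi-square per degree of freedom from 3.63 to 13.1), most of all in the pairs with hypoxia replicate 2.

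In control cells, Klf4 and Klf6 were the KLF genes with the highest levels per exon length. Klf4 stood at 31.2 ± 2.33 CPM per kb and Klf6 at 29.9 ± 2.09, and the values of these neighbours overlapped. Klf2 (12.1 ± 1.42 CPM per kb) and Klf13 (10.6 ± 0.734) followed, again with overlapping values, and then Klf3 at 7.54 ± 0.410, apart from both of its neighbours. Klf9 (5.80 ± 0.449), Klf11 (5.37 ± 0.449), Klf15 (4.83 ± 0.473) and Klf10 (4.77 ± 0.243) formed a run in which each gene overlapped the next. Klf5 was lowest, at 1.31 ± 0.150 CPM per kb. The 10 levels summed to 113 ± 2.56 CPM per kb, of which Klf4 made up 27.5% and Klf6 26.3%.

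**Figure D1:**
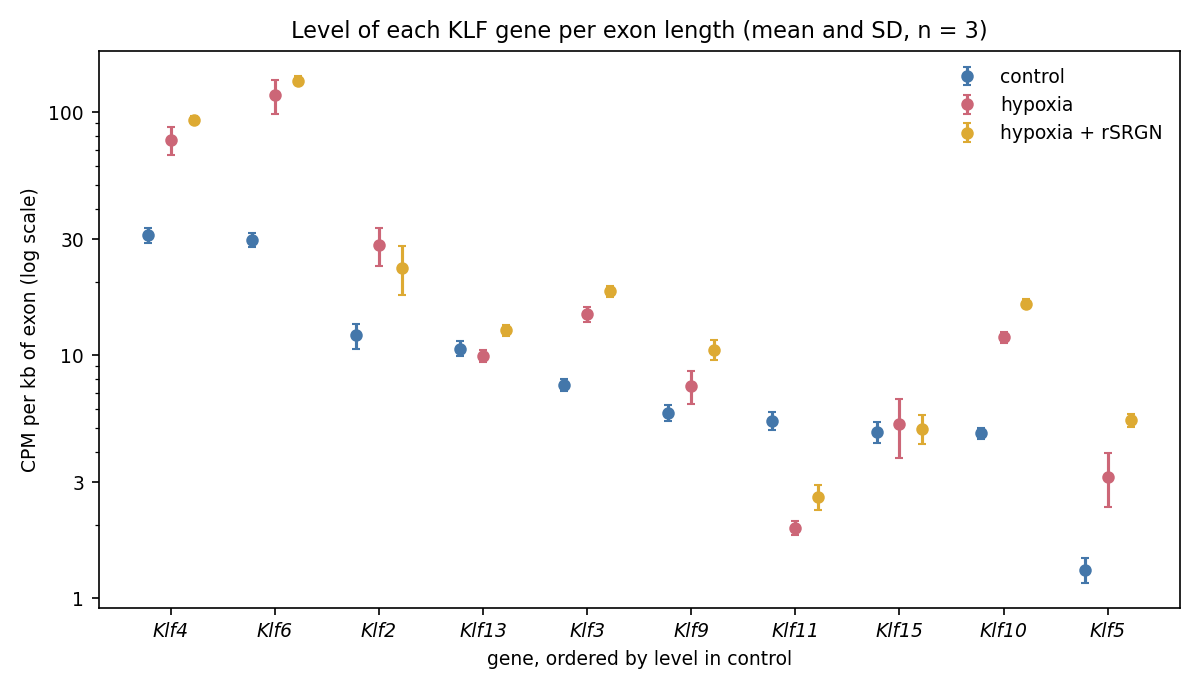
Mean level of each KLF gene in CPM per kb of exon (log axis) with SD, n = 3 libraries per group, ordered by the control level. Klf6 moves from 29.9 in control to 117 in hypoxia and 135 in hypoxia + rSRGN, while Klf11 drops from 5.37 to 1.94 and then stands at 2.603.

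The order of levels was different in the hypoxic groups. In hypoxia the sum was 276 ± 31.1 CPM per kb and in hypoxia + rSRGN it was 322 ± 3.08, both ranges lying above that of control. Klf6 alone led in hypoxia (117 ± 18.9 CPM per kb) and in hypoxia + rSRGN (135 ± 5.90), with 42.3% and 41.9% of the sum. Klf4 came next, at 76.5 ± 10.1 and 93.2 ± 3.22 CPM per kb, and did not overlap Klf6 in either group. Klf2, Klf3, Klf10 and Klf13 followed in that order in both groups without overlap between neighbours. Klf11, whose control values overlapped those of Klf9 and Klf15, was the lowest in both hypoxic groups, and Klf5, lowest in control, overlapped Klf15 in each of them.

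Hypoxia with glucose-free, serum-free medium was compared with control to ask how the KLF transcripts stood after 6 h. Among the 10 members, the 4 genes of activators and the gene of the CtBP-binding repressor Klf3 rose. The Sin3-binding group was divided between a gene that rose, a gene that fell and genes that were not called. This sorting covers the 10 members alone, and the 5 other tested KLF genes, described further on, had 0 calls. Of the 10 members, 6 were called higher, beside 26.4% of all tested genes, and 1 was called lower, beside 25.1%. The groups did not overlap for 8 of the 10, beside 73% of all tested genes. The median log2 fold change was 1.10 over the members and 0.0537 over all tested genes. It was -0.25 over the 5 other tested KLF genes. The 10 members were chosen with earlier results of these data known, so their shares need not hold for the family.

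Klf6, on chromosome 13 (chr13:5861482-5870394, plus strand), had the largest change. It was at 137, 121 and 136 CPM in the control libraries and at 470, 610 and 464 CPM in the hypoxia libraries. Every hypoxia library was more than 3 times as high as the highest control library. The log2 fold change was 1.97 ± 0.094 (3.93-fold, adjusted p = 2.75e-14).

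Klf4 (chr4:55527143-55532466, minus strand), one of the factors used to reprogram cells to pluripotency, was at 103, 90.2 and 91.6 CPM in control and at 209, 268 and 223 CPM in hypoxia. Its log2 fold change was 1.30 ± 0.086 (2.45-fold, adjusted p = 9.13e-12). Klf2 (chr8:72319033-72321656, plus strand), a regulator of endothelial quiescence, was at 19.5, 24.7 and 22.8 CPM in control and at 41.7, 55.5 and 59.7 CPM in hypoxia. The groups were apart for both genes, with the lowest hypoxia library of Klf2 well above its highest control library. The log2 fold change of Klf2 was 1.23 ± 0.14 (2.34-fold, adjusted p = 8.37e-08).

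Klf5 (chr14:99298691-99315036, plus strand), known for its part in vascular and cardiac remodelling, was at 6.70, 7.63 and 6.09 CPM in control and at 16.1, 20.7 and 12.6 CPM in hypoxia. Its hypoxia libraries were the most spread of the genes that rose (coefficient of variation 24.8%), yet all 3 lay above control. The log2 fold change was 1.27 ± 0.15 (2.41-fold, adjusted p = 1.25e-07). Klf3 (chr5:64803388-64832901, plus strand) was at 90.0, 82.0 and 82.1 CPM in control and at 164, 179 and 155 CPM in hypoxia, which are also separate ranges, with a log2 fold change of 0.97 ± 0.076 (1.96-fold, adjusted p = 1.44e-10). A non-coding gene on the opposite strand, Gm20033, shares 404 exon bases with Klf3, or 3.59% of its exon length, and counting was without strand, so fragments of the shared bases cannot be told apart.

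**Figure D2:**
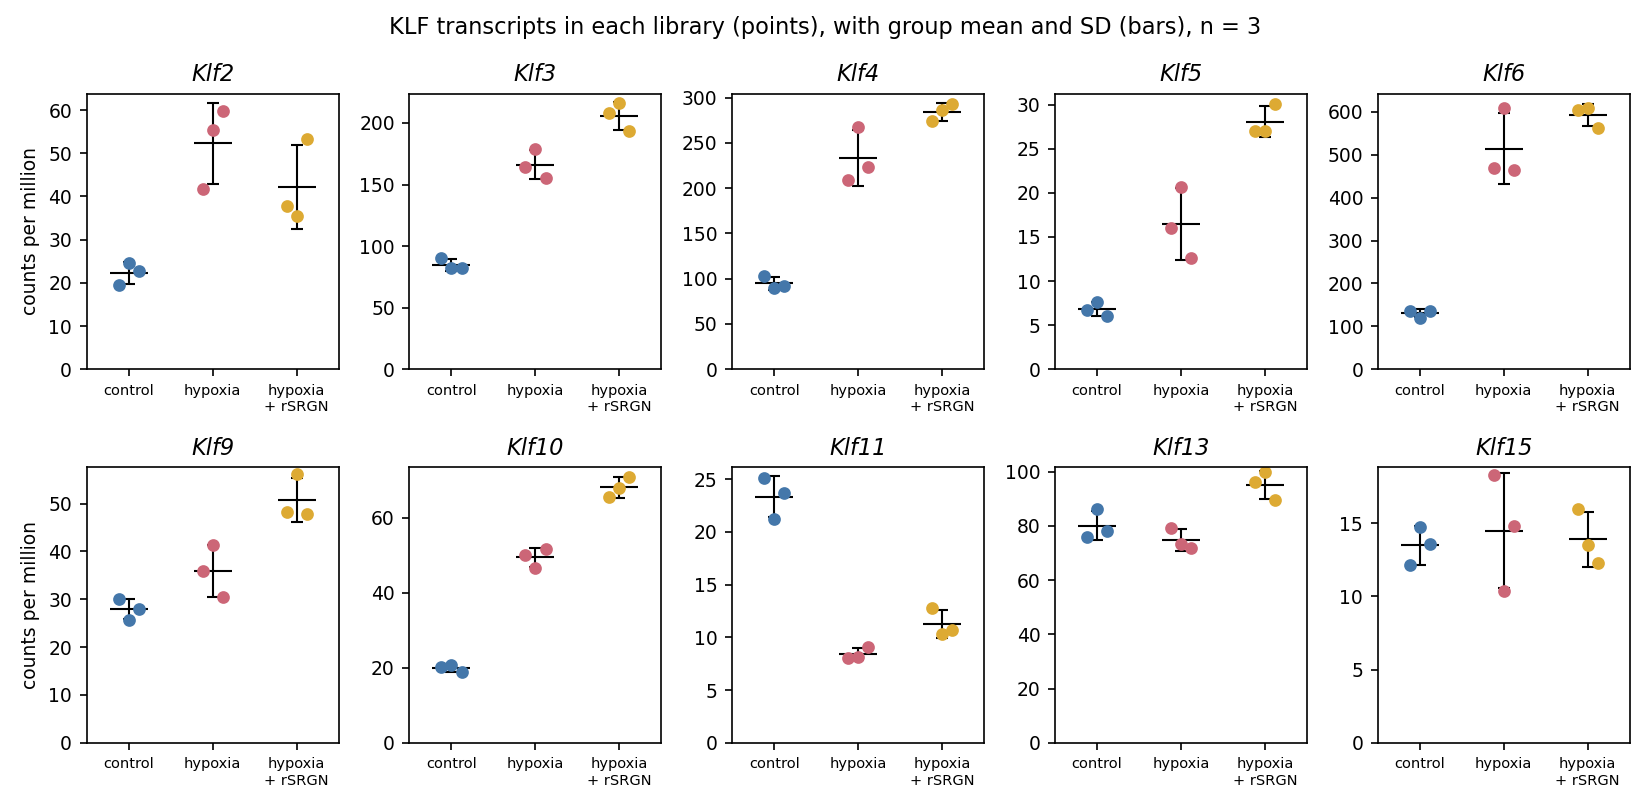
CPM of each KLF gene in the 9 libraries (points, by group), with the group mean and SD as black bars (n = 3) and each axis starting at 0. Hypoxia lies above control without overlap for Klf2, Klf3, Klf4, Klf5, Klf6, Klf9 and Klf10 and below it for Klf11, and the groups overlap for Klf13 and Klf15.

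The TGF-beta-inducible pair moved in opposite directions. Klf10 (chr15:38291463-38300706, minus strand), also called TIEG1, was at 20.3, 20.7 and 18.8 CPM in control and at 49.96, 46.6 and 51.7 CPM in hypoxia. Klf11 (chr12:24651274-24662789, plus strand), or TIEG2, was at 25.1, 21.2 and 23.7 CPM in control and at 8.06, 8.15 and 9.09 CPM in hypoxia. Every hypoxia library had more Klf10 and less Klf11 than any control library. Per exon length the pair overlapped in control, from 4.50 to 4.96 CPM per kb for Klf10 and from 4.89 to 5.78 for Klf11, and was apart in hypoxia, from 11.1 to 12.4 and from 1.86 to 2.10. The log2 fold change was 1.31 ± 0.086 for Klf10 (2.48-fold, adjusted p = 7.7e-12) and -1.47 ± 0.12 for Klf11 (2.77-fold lower, adjusted p = 3.83e-10). Klf11 was the only one of the 10 members called lower.

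Klf9, Klf13 and Klf15 were not called. Klf9 (chr19:23141226-23168134, plus strand), a glucocorticoid- and thyroid hormone-responsive gene, was at 30.1, 25.7 and 28.0 CPM in control and at 35.9, 41.4 and 30.4 CPM in hypoxia. These ranges were separate by a narrow margin, and the log2 fold change of 0.36 ± 0.11 (1.29-fold, adjusted p = 0.0053) was under the fold limit. Klf13 (chr7:63886351-63938915, minus strand), a gene with a part in heart development, was at 76.0, 86.4 and 78.1 CPM in control and at 79.2, 73.4 and 71.7 CPM in hypoxia, which overlap (log2 fold change -0.10, 95% interval -0.26 to 0.059, adjusted p = 0.25). Klf15 (chr6:90462576-90475238, plus strand) was at 12.1, 14.8 and 13.6 CPM in control and at 18.3, 10.4 and 14.8 CPM in hypoxia. The hypoxia libraries of Klf15 enclosed the control range, and its log2 fold change of 0.11 had a 95% interval from -0.22 to 0.43 (adjusted p = 0.556), which leaves out a change of 1.5-fold in either direction.

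Hypoxia + rSRGN was then compared with hypoxia, with the hypoxia libraries shared between this comparison and the one before. Klf5 was the only one of the 10 members called, and it was higher, beside 2.27% of all tested genes called higher and 0.859% called lower. It was at 27.0, 27.0 and 30.1 CPM with rSRGN against 16.1, 20.7 and 12.6 CPM in hypoxia. All 3 libraries with rSRGN lay above the highest hypoxia library, and the log2 fold change was 0.77 ± 0.14 (1.70-fold, adjusted p = 0.000704). Klf5 remained called in each of the 18 alternative settings and left-out libraries, with log2 fold changes from 0.61 to 0.97. Among these, the unadjusted p and the lack of a fold limit only loosen the rule and could not have removed the call.

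The other members differed by less than 1.5-fold. At an adjusted p below 0.05 with no fold limit, 7 of the 10 were higher and 0 were lower with rSRGN by edgeR, where 10.5% of all tested genes were higher and 6.11% lower by that rule (for the lower direction, 1 member, Klf2, had an unadjusted p below 0.05, at 0.0358). The 7 were Klf5 and, in order of size, Klf9, Klf10, Klf11, Klf13, Klf3 and Klf4, and the same 7 had no overlap between the groups, beside 32% of all tested genes. The median log2 fold change was 0.33 over the members, 0.25 over the 5 other tested KLF genes and -0.0289 over all tested genes.

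Klf9 was at 48.3, 56.1 and 47.9 CPM with rSRGN, above all 3 hypoxia libraries, with a log2 fold change of 0.50 ± 0.11 (1.41-fold, adjusted p = 0.0028). Without hypoxia replicate 2, its highest hypoxia library, it passed the fold limit (log2 fold change 0.62, adjusted p = 0.000208), and 2 members were then called. Klf10 was at 65.4, 67.9 and 70.9 CPM with rSRGN, also above every hypoxia library, with a log2 fold change of 0.46 ± 0.082 (1.38-fold, adjusted p = 0.000676). Its values in hypoxia + rSRGN were thus farther from control than those in hypoxia.

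Klf11 was at 12.8, 10.4 and 10.7 CPM with rSRGN, above the 3 hypoxia libraries and below all control libraries. Its log2 fold change against hypoxia was 0.42 ± 0.13 (1.34-fold, adjusted p = 0.0287). Klf13, which overlapped between hypoxia and control, was at 96.2, 99.7 and 89.7 CPM with rSRGN, above the 6 other libraries (log2 fold change 0.35 ± 0.077 against hypoxia, adjusted p = 0.00364). Klf3 was at 208, 216 and 193 CPM with rSRGN (log2 fold change 0.31 ± 0.075, adjusted p = 0.00684). For Klf4 the libraries with rSRGN, at 274, 286 and 293 CPM, began just above the highest hypoxia library (log2 fold change 0.29 ± 0.084, adjusted p = 0.0233).

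Klf6, Klf2 and Klf15 overlapped between the hypoxic groups. Klf6 was at 604, 610 and 563 CPM with rSRGN, a range that met that of hypoxia at the high value of hypoxia replicate 2 (log2 fold change 0.20, 95% interval 0.015 to 0.39, adjusted p = 0.135). Klf2 was at 37.9, 35.5 and 53.2 CPM with rSRGN (log2 fold change -0.31, 95% interval -0.59 to -0.022, adjusted p = 0.136). It was the member with the most negative estimate in this comparison. Klf15 was at 15.97, 13.5 and 12.3 CPM with rSRGN, within the range of hypoxia (log2 fold change -0.07, 95% interval -0.39 to 0.26, adjusted p = 0.831).

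**Figure D3:**
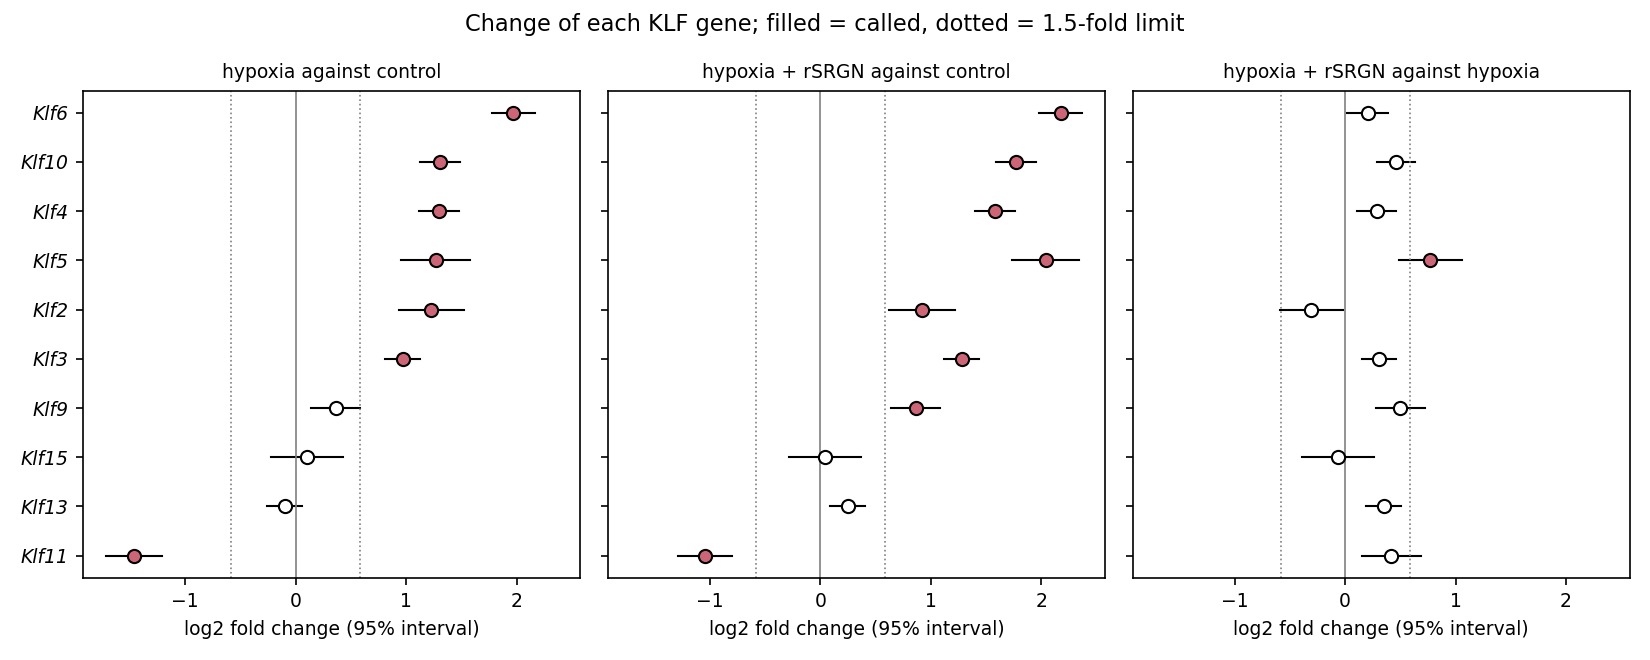
Log2 fold change of each KLF gene with its 95% interval (horizontal lines) in the 3 comparisons, where filled points are called and dotted lines mark the 1.5-fold limit. Klf6 reaches 1.97 and 2.18 against control, Klf11 lies at -1.47 and -1.05, and Klf5 (0.77) is the filled point between the hypoxic groups.

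Hypoxia + rSRGN was also compared with control, whose libraries serve both comparisons with control. Here 7 of the 10 members were called higher, beside 24.1% of all tested genes, and 1 was called lower, beside 24.7%. The groups did not overlap for 9 of the 10, beside 73.3% of all tested genes. The median log2 fold change was 1.10 over the members, -0.21 over the 5 other tested KLF genes and 0.0076 over all tested genes. Klf6 (2.18 ± 0.095, adjusted p = 8.19e-15) and Klf5 (2.04 ± 0.15, adjusted p = 3.87e-11) had the largest log2 fold changes. Klf10 stood at 1.77, Klf4 at 1.58, Klf3 at 1.28, Klf2 at 0.92 and Klf9 at 0.86, and Klf11 was lower at -1.05 ± 0.12 (2.07-fold lower, adjusted p = 5.88e-08). Klf13 was not called (log2 fold change 0.25, adjusted p = 0.00645), nor was Klf15 (0.04, adjusted p = 0.829).

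The DNA around the start sites was read to show which short motifs stand in front of genes that rose, fell or were not called. Windows of 300 bases, 250 before and 50 after the RefSeq start (GRCm38.p6), were matched for 8 of the 10 members, Klf5 and Klf10 being unmatched. The windows were rich in GC, from 63% to 77.7%, where the median of all 32851 windows was 52.7%. They held between 23 and 47 CpG dinucleotides, where the median of all windows was 7. The GC box GGGCGG, bound by SP and KLF proteins, was present on either strand in 7 of the 8, beside 35.7% of all windows. The KLF box CACCC was present in 5 of the 8, beside 57.5%. The core ACGTG of the hypoxia response element, which is also the core of E-boxes of the form CACGTG, was present in 5 of the 8, beside 19.6% of all windows. Both GGGCGG and ACGTG hold a CpG, so the shares of all windows are not a matched background for windows this rich in CpG. Windows of like CpG content were not compared. Overlapping matches of a motif on both strands were counted as 1 site.

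The part of the window before the first annotated exon base is printed below for Klf6, which had the largest change, for Klf4, the other gene of high level, for Klf11, the member called lower, and for Klf15, which was not called. Capitals mark the KLF box, the GC box and the ACGTG core on either strand, each line running 5′ to 3′ in the direction of transcription, for chr13:5861239-5861481 (plus strand), chr4:55532476-55532725 (minus strand), chr12:24651121-24651273 (plus strand) and chr6:90462326-90462575 (plus strand).
Klf6: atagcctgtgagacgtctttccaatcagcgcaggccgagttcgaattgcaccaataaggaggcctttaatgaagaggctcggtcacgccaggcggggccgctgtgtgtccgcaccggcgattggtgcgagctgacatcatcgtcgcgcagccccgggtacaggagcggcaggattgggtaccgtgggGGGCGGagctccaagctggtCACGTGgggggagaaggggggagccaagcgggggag
Klf4: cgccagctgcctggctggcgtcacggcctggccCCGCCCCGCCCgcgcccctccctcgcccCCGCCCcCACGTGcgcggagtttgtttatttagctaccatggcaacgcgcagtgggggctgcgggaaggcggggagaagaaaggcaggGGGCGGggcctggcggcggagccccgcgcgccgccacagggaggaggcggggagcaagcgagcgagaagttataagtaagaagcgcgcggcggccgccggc
Klf11: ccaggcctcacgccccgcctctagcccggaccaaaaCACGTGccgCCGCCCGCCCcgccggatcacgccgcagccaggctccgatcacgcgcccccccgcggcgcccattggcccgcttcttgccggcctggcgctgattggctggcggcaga
Klf15: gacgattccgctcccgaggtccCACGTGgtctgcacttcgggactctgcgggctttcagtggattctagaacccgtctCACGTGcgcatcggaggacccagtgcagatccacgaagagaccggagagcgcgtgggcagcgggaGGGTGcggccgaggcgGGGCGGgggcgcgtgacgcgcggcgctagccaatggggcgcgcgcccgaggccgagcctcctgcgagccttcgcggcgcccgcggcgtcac

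Each of these 4 stretches holds at least 1 copy of CACGTG, so the motif is present in front of genes that rose, fell and were not called. Klf6 has 1 GC box, at position -63 from the RefSeq start, and 1 CACGTG, at -43. Klf4 has CACGTG at -182 and 3 GC box sites, of which the first, at -217, is a run of overlapping copies. Klf11 has CACGTG at -214 and GC boxes at -205, -49 and -20, of which the latter pair lies past the printed stretch. Klf15 has 3 sites with the core in its window, at -228, -172 and -3, of which the last runs past the printed stretch and is not in capitals, more than any other matched member, and a single KLF box and a single GC box. Among members without a printed sequence, Klf3 had the most GC boxes (6) and KLF boxes (5), Klf9 had 1 ACGTG and no GC box, and Klf2, Klf3 and Klf13 had no ACGTG in the window. The cAMP response element TGACGTCA was in 0 of the 8 windows, beside 1.79% of all windows. The half-site AGAACA of the glucocorticoid receptor was in 0 of the 8, beside 19%, and so was the TATA box in its form TATAAA, beside 13.6%. The AP-1 site TGANTCA (in 7.81% of all windows) was found in Klf9, and paired heat shock units of the form TTCNNGAA (8.52%) in Klf15. All motifs were searched on both strands. A match is a description of these letters and not evidence of binding.

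Related transcription factor genes were read beside the members. For each of the lists from here on, the counts in hypoxia against control stand beside 26.4% of all tested genes called higher and 25.1% called lower, with an all-gene median of 0.0537, and those in hypoxia + rSRGN against hypoxia beside 2.27% and 0.859%, so that a list of few genes with a share near these is not set apart from other genes. Between the hypoxic groups, counts at an adjusted p below 0.05 and any fold stand beside 10.5% higher and 6.11% lower. No all-gene share was computed for the unadjusted p at any fold. Of the other 7 genes of the KLF family, 5 were tested and 0 were called in hypoxia against control by edgeR or DESeq2, although Klf7, Klf16 and Klf12 had an adjusted p below 0.05 with log2 fold changes of 0.35, 0.52 and -0.44. The other tested genes were Klf8 (log2 fold change -0.25, adjusted p = 0.391) and Klf14 (-1.30, adjusted p = 0.0872, at under 1 CPM). Both tools called 0 of the 5 between the hypoxic groups, where 2 were higher at an unadjusted p below 0.05. The same 2, Klf7 (log2 fold change 0.25, adjusted p = 0.043) and Klf16 (0.40, adjusted p = 0.0435), also passed the rule of an adjusted p below 0.05 at any fold by which 7 of the 10 members were higher. Klf7 (0.60) and Klf16 (0.92) were called higher in hypoxia + rSRGN against control. Of the 9 genes of the SP family, whose proteins bind the same GC boxes, 4 were tested, and Sp1 (-0.75) and Sp4 (-1.12) were called lower in hypoxia against control. Sp1, the widely expressed member, was at 49.0 CPM in hypoxia and 82.6 CPM in control.

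Genes of the proteins that KLFs work with were near the all-gene shares for cofactors. Among 9 cofactor genes, 3 were higher (26.4% of all tested genes) and 2 lower (25.1%) in hypoxia against control, and the median log2 fold change was 0.086. Those that fell were Kat2b, the gene of the acetyltransferase PCAF (log2 fold change -2.03, 112 CPM in control and 27.5 in hypoxia), and Sin3a, the gene of the corepressor that Klf9, Klf10, Klf11 and Klf13 bind (-1.28). Hdac1, a histone deacetylase (0.81), and Ctbp2, a partner of Klf3 (0.75), rose, as did Crebbp, an acetyltransferase gene named after its value was seen (0.64). Of 6 genes of ubiquitin ligases tied to KLF turnover, 3 fell, namely Fbxo32 (-2.63), Fbxw7 (-1.18) and Wwp1 (-0.61), and 0 rose by edgeR, by DESeq2 or at an unadjusted p below 0.05, and Vhl, Smurf1 and Btrc were not called by edgeR (-0.56, -0.11 and -0.19), while DESeq2 called 4 of the 6 lower. With rSRGN against hypoxia, edgeR and DESeq2 called 0 of the 9 cofactor genes and 0 of the 6 ligase genes. At an unadjusted p below 0.05 and any fold, 1 cofactor gene was higher and 3 were lower, and 3 ligase genes were higher. At an adjusted p below 0.05 these numbers were 1, 2 and 3, beside 10.5% of all tested genes higher and 6.11% lower by that rule.

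Genes upstream of the family were read in the same way. In the MEK5-ERK5-MEF2 axis, which drives Klf2 and Klf4 in endothelium, Mef2c (-1.20) and Mef2d (-0.68) fell, and Map2k5, Mapk7 and Mef2a were not called by edgeR (-0.11, 0.24 and -0.57), while DESeq2 called 3 of the 5 lower. Of 4 receptor genes for the hormones that induce Klf9 and Klf15, Nr3c2, the mineralocorticoid receptor (-4.25), Thrb, a thyroid hormone receptor (-0.74), and Nr3c1, the glucocorticoid receptor (-0.73), fell. Nr3c2 was at 18.4 CPM in control, 0.959 in hypoxia and 2.04 in hypoxia + rSRGN, and the last 2 groups differed (log2 fold change 1.08, adjusted p = 0.00337). Of 8 glucocorticoid-induced genes, 4 rose, beside 26.4% of all tested genes, and 2 fell, a share like the 25.1% of all tested genes, with a median log2 fold change of 0.70. Errfi1, a feedback inhibitor of the EGF receptor (2.83), and Cebpd, a transcription factor (1.75), rose, as did Sgk1, a kinase (0.96), and Per1, a clock gene (0.83), the latter pair named after their values were seen, while Zbtb16 (-3.28) and Pdk4, an inhibitor of pyruvate dehydrogenase (-2.03), fell. With rSRGN, Errfi1 (0.85), Pdk4 (0.69) and Zbtb16 (1.39) were higher than in hypoxia, and the other 5 were not called. In the TGF-beta loop that Klf10 and Klf11 belong to, 2 of 9 genes rose in hypoxia, namely the ligand gene Tgfb1 (0.99) and the inhibitory Smad7 (0.89). This share was no higher than the 26.4% of all tested genes, and 0 fell by edgeR or DESeq2. At any fold, 6 were higher and 1 was lower, both at an unadjusted and at an adjusted p below 0.05. An all-gene share for these looser rules was not computed in this comparison. Between the hypoxic groups both tools called 0 of the 9, and 4 were higher both at an unadjusted and at an adjusted p below 0.05 at any fold, the rule by which 10.5% of all tested genes were higher. The MEK5-ERK5-MEF2 axis and the SP genes likewise had 0 called there by both tools, and each had 2 genes higher by the unadjusted p and 1 by the adjusted p at any fold.

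Genes known as targets of single KLFs were read next. Of 10 genes tied to Klf15 in muscle, 9 fell in hypoxia, beside 25.1% of all tested genes, and the median log2 fold change of the 10 was -1.87, while Klf15 itself was not called. The 10 cardiomyocyte markers described further on fell with them (10 of 10 lower, median -3.70), and their part in this list's change was not tested. Slc2a4, the insulin-responsive glucose transporter GLUT4, was at 143 CPM in control, 8.85 in hypoxia and 17.8 in hypoxia + rSRGN. Its log2 fold change was -4.01 ± 0.10 in hypoxia against control (adjusted p = 1.32e-18) and 1.01 ± 0.11 between the hypoxic groups (adjusted p = 1.48e-05). Kcnip2, a subunit of the transient outward potassium channel, changed by -3.94 and 1.14 in these comparisons, and Fabp3, a fatty acid binding protein (-2.92), and Acadm, an enzyme of fatty acid oxidation (-2.23), fell in hypoxia. Slc2a4 and Kcnip2 were the 2 of the 10 called with rSRGN against hypoxia by edgeR, and DESeq2 called 1.

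Among 4 target genes of Klf2 and Klf4 in endothelium, S1pr1, a sphingosine phosphate receptor that Klf2 activates, was at 134 CPM in control and 6.99 in hypoxia (log2 fold change -4.26 ± 0.12). Edn1, the gene of endothelin-1, which Klf2 represses, was at 10.3 CPM in control and 68.7 in hypoxia (2.74 ± 0.11). Klf2 and Klf4 themselves rose in this comparison. Thbd, thrombomodulin (0.30), and Nos3, endothelial nitric oxide synthase (-0.18), were not called in hypoxia, and with rSRGN Thbd (0.61) and S1pr1 (0.62) were higher than in hypoxia. Edn1 was under the fold limit between the hypoxic groups but was lower with rSRGN, without overlap (log2 fold change -0.39, adjusted p = 0.00822). Nos3 was not called there (-0.43, adjusted p = 0.506). Of 4 genes tied to Klf6, Eng, a TGF-beta co-receptor (1.32), Plau, urokinase (1.20), and the cell cycle inhibitor Cdkn1a (0.98) rose in hypoxia, and Tgfbr1 was not called (-0.20). Between the hypoxic groups edgeR and DESeq2 called 0 of the 4, and 1 was higher at an unadjusted and at an adjusted p below 0.05 at any fold.

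**Figure D4:**
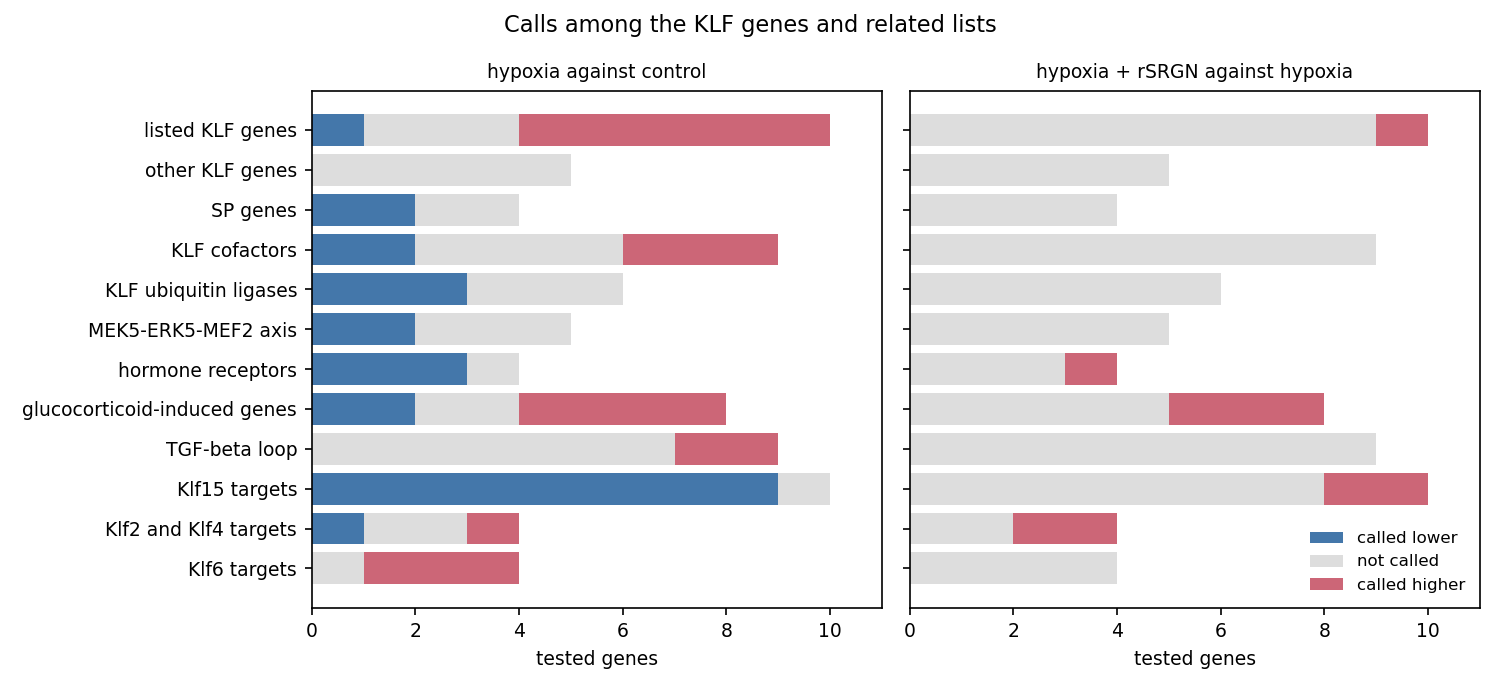
Number of tested genes called lower, not called and called higher for the listed KLF genes and 11 related lists, in hypoxia against control (left) and hypoxia + rSRGN against hypoxia (right). Of the Klf15 targets, 9 of 10 are lower in hypoxia, while 6 of the 10 listed KLF genes are higher.

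Markers of the cell types in the cultures also changed, and the direction differed between cell types. The 10 cardiomyocyte markers, among them the myosin gene Myh7 and the phospholamban gene Pln, had a summed level of 41116 to 49928 CPM in the control libraries, 3619 to 5550 in hypoxia and 7045 to 7561 in hypoxia + rSRGN. All 10 fell in hypoxia against control, beside 25.1% of all tested genes, and 9 of the 10 were higher with rSRGN than in hypoxia, beside 2.27%. The 10 fibroblast markers summed to 8989 to 10580 CPM in control, 17856 to 20632 in hypoxia and 19703 to 20318 in hypoxia + rSRGN, and 7 rose in hypoxia, beside 26.4% of all tested genes. The sums were carried mainly by the collagen genes Col1a1 (mean 3593 CPM in control), Col3a1 (2552) and Col1a2 (2449). Pdgfra (75.6) and Tcf21 (68.0) were far lower, and these genes were named after their values were seen. Fibroblast markers were thus present, and collagen genes at high levels, in cultures labelled as myocytes. Of the fibroblast markers, 1 was called between the hypoxic groups, Tcf21, which was lower with rSRGN (-0.76).

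The 10 endothelial markers, of cells in which Klf2 and Klf4 are best known, summed to 115 to 149 CPM in control, 107 to 123 in hypoxia and 117 to 145 in hypoxia + rSRGN, which overlap, with 7 of 10 called lower in hypoxia, beside 25.1% of all tested genes, and 1, Kdr, higher with rSRGN, beside 2.27%. The overlap of the sums rested on Flt1, a VEGF receptor named after its values were seen, which was at 38.2 to 40.8 CPM in control, 54.3 to 56.7 in hypoxia and 64.6 to 77.5 in hypoxia + rSRGN. Without Flt1 the other 9 summed to 76.8 to 108 CPM in control, 51.6 to 65.8 in hypoxia and 52.3 to 67.4 in hypoxia + rSRGN, so that both hypoxic groups lay below control. The 10 macrophage markers summed to 233.3 to 248.9 CPM in control, 24.9 to 28.0 in hypoxia and 29.4 to 35.2 in hypoxia + rSRGN, with 9 of 10 lower in hypoxia, beside 25.1% of all tested genes. With rSRGN against hypoxia, edgeR and DESeq2 called 0 of these, and 2 were higher at an unadjusted p and 1 at an adjusted p below 0.05 at any fold. Lyz2, named after its values were seen, had the largest part in the macrophage sums, at a mean of 194 CPM in control, 15.3 in hypoxia and 19.0 in hypoxia + rSRGN. The 6 smooth muscle markers summed to 1417 to 1692 CPM in control, 2026 to 2321 in hypoxia and 1734 to 1855 in hypoxia + rSRGN, with 2 higher and 1 lower of the 6 in hypoxia, near the 26.4% and 25.1% of all tested genes, and 0 called with rSRGN by both tools (2 lower by the unadjusted p and 1 by the adjusted p at any fold). The smooth muscle sums were carried mainly by Acta2, at a mean of 1386 CPM in control, 2027 in hypoxia and 1646 in hypoxia + rSRGN. Acta2 was itself not called in hypoxia (0.55), while Tagln (1.47) and Actg2 (0.64) were higher and Cnn1 (-0.84) was lower. No marker of any of these lists was at 0 in every library of a group. In such bulk libraries, fewer cells of a type and less RNA per cell cannot be told apart, and the part of these shifts in the results on the KLF genes and on the related lists was not tested.

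The genes whose pattern was closest to each member were found by the root mean square difference of centred log2 CPM over the 9 libraries, among 14256 genes with a mean of at least 1 CPM. For Klf6 they were Zswim6 (0.076) and Epha2, an ephrin receptor gene (0.096), and for Klf4 they were Efnb2, an ephrin ligand gene, and Ccn2, the gene of connective tissue growth factor (0.077 each). Klf3 was closest to Vgll3, a cofactor of TEAD factors (0.056), and Cnksr3 (0.065). Klf10 was closest to Irs2, an insulin receptor substrate (0.092), and B4galt5 (0.099), and Klf5 to Cttnbp2nl and Sgms2 at larger distances (0.14 and 0.15). For Klf2 they were Tmem204 and Ppan (0.12 and 0.14), for Klf9 Map3k2 and Fam171b (0.082 and 0.084), and for Klf11 Cfap97 and Miga1 (0.070 and 0.074). Klf13 had the closest neighbour of all, Wasf2 (0.041), followed by Traf6 (0.061), and Klf15 was closest to Qpctl and Exoc3l2 (0.093 and 0.10). Between members, Klf4 and Klf10 were the most alike (0.16) and Klf6 and Klf11 the least (1.57).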

How the data were processed

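Polyadenylated RNA was sequenced on an Illumina instrument. The authors deposited whole-number counts of fragments per gene, made per the file headers with featureCounts 2.0.1 in paired-end mode on exons of GENCODE mouse release 25, without a strand option or normalization. The submitters' processing notes name HISAT2 and mm10. All 9 count columns were mapped to samples by their labels, and 0 were left unused. Overlapping genes and near-identical copies are uncertain, as their fragments may have been given to a neighbour or dropped.

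R 4.3.3 and edgeR 4.0.16 were used. After filterByExpr and TMM scaling, a model with 1 mean for each group was fitted to all 9 libraries, and contrasts were tested by quasi-likelihood with Benjamini-Hochberg adjustment over 16762 genes. CPM used the TMM-scaled library sizes, and log2 CPM used a prior count of 2. Alternatives were DESeq2 1.42.0, RLE scaling, library size alone, filters (1 count over all libraries, or 10 in each), unadjusted p-values, no fold limit, a fit of the compared groups alone, a replicate block, and the removal of single libraries. The members and lists were chosen with earlier results of these data known. From each list, called genes could be named, at most the 4 with the largest change per comparison, and any gene of a list with under 8 genes. The fitting step was tested on simulated counts, and its acceptance rule was revised after the first version, which counted all changed genes, was not met because genes with few counts were missed. RefSeq promoter windows came from a table on GRCm38.p6. Plots were made with matplotlib 3.10.9. The published paper describes other samples and gave no values here.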

Additional observations from a re-analysis of the deposited data

How the results depend on the processing

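The counts of members called in hypoxia against control (7) and in hypoxia + rSRGN against control (8) did not move by over 1.5 times under any of the 18 alternatives, and leaving out each library in turn gave 7 to 7 and 8 to 8. Between the hypoxic groups, 1 member was called, 7 with no fold limit, and 1 to 2 with a library left out, the 2 being without hypoxia replicate 2 (Klf9 joins Klf5). Over all genes, 525 were called there, 899 with the unadjusted p, 2790 with no fold limit, and 321 (without hypoxia replicate 3) to 699 (without hypoxia replicate 2) with a library left out. The genes called against control ranged from 8496 to 8952 for hypoxia and from 8028 to 8535 for hypoxia + rSRGN when libraries were left out. Klf15, not called under any of them, changed sign. In hypoxia against control it ranged with a library left out from -0.0971 (without hypoxia replicate 1) to 0.2942 (without hypoxia replicate 2). Between the hypoxic groups it ranged from -0.2545 (without hypoxia replicate 2) to 0.1381 (without hypoxia replicate 1), with 0.027 without hypoxia + rSRGN replicate 3. In hypoxia + rSRGN against control it ranged from -0.0672 (without hypoxia + rSRGN replicate 1) to 0.1186 (without hypoxia + rSRGN replicate 3), with -0.0396 without control replicate 1 and -0.0011 with a filter of at least 1 count. The cause was not tested. With the replicate number as a block, 7, 1 and 8 members and 8550, 495 and 8096 genes were called, and no member call changed; same-numbered libraries did not deviate together (r from -0.037 to 0.021), so the numbers were not taken to pair the libraries. Among genes called between the hypoxic groups, 72.57% were higher, 84.66% by DESeq2 and 60.51% with the unadjusted p. The SE of the log2 fold change was from 0.137 to 0.158 for Klf2, Klf5 and Klf15 and below that for the other members.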
